A study of Mus musculus with 9 samples.

Results

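The genes described here are 9 that set glucose release by the liver and its response to fasting and insulin, read by symbol from the liver count tables of mice on 3 iron diets. All 9 were found among the 23420 genes of the tables, and all 9 were among the 13020 tested. The study fed wild-type male C57BL/6 mice a soy-free AIN-93G diet with 2.5 mg iron per kg (low iron), 37.5 mg per kg (sufficient iron) or 1000 mg per kg (high iron). Each diet was given to 3 mice for 50 days, starting at an age of 5 weeks, and the mice were 12 weeks old at harvest. The labels give no feeding or fasting state and no time of day at which the livers were taken. Whole liver was sequenced, so fewer cells of a type and less RNA per cell cannot be told apart.

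In the liver, glucose is made from lactate, amino acids and glycerol when food is scarce. Pyruvate carboxylase (Pcx) and phosphoenolpyruvate carboxykinase (Pck1) start the route, fructose-1,6-bisphosphatase (Fbp1) and glucose-6-phosphatase (G6pc) finish it, and the transporter GLUT2 (Slc2a2) carries glucose across the hepatocyte membrane. Glucagon acts through cAMP and the coactivator PGC-1alpha (Ppargc1a) to raise the route. Insulin acts through the adaptor IRS2 (Irs2) and the kinase AKT to keep the factor FOXO1 (Foxo1) out of the nucleus, which lowers transcription of G6pc, Pck1, Irs2 itself and Igfbp1, the gene of a secreted IGF-binding protein.

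The libraries held 22 M to 33.8 M reads on genes, and each of the 9 genes between 95 and 31367 of them. A mouse is given its diet and its title number. Rn45s (the 45S rRNA precursor) made up 43.7% of reads in low-iron mouse 1, 40.5% in high-iron mouse 12 and 12.5% to 23.8% elsewhere. Wilson 95% intervals around these shares were at most 0.0415 percentage points wide and cover counting error only. Low-iron mouse 1 (-51.8) and sufficient-iron mouse 6 (41.2) lay at the ends of the first principal component. The 7 hepatocyte markers, albumin among them, had reads in each library. The 6 exocrine pancreas and 4 beta cell markers had 0 reads.

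High-iron livers had more Irs2 and less Fbp1 transcript than the livers of either other diet, with no overlap between mice. Such separation was found for 17.8% of all genes between the high-iron and sufficient diets and for 15.7% between the high-iron and low-iron diets, so 2 of 9 is near the background. Neither difference passed the test over all genes, and 0 of the 9 genes passed in any comparison. Levels are given in CPM, read counts scaled to library size and composition. A difference was called at a Benjamini-Hochberg adjusted p under 0.05 in the edgeR quasi-likelihood test over 13020 genes. Foxo1, Slc2a2, Ppargc1a and Pcx varied little between mice and had diet means close together, whereas G6pc, Igfbp1 and Pck1 varied more between mice. The diets overlapped for each of these genes.

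**Figure D1:**
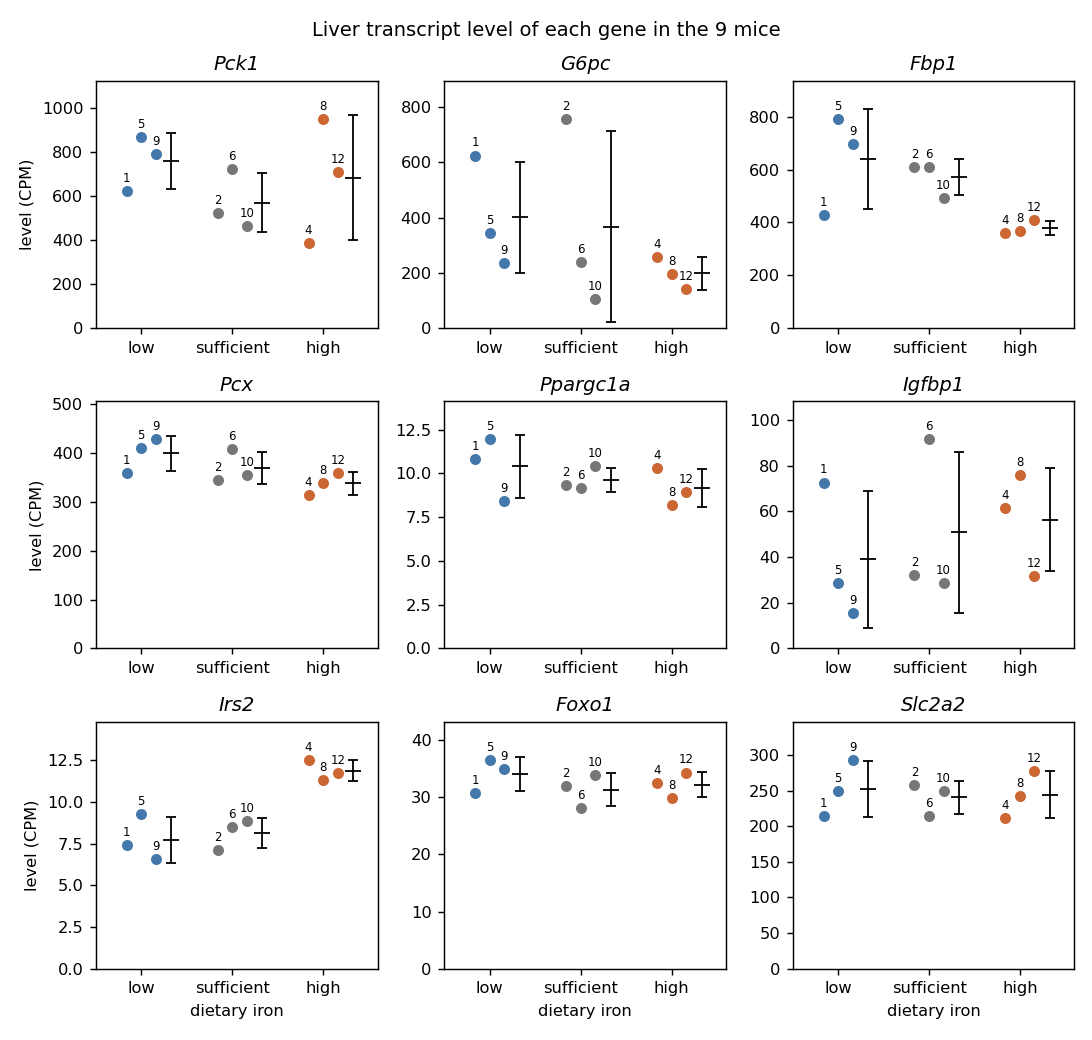
Level in CPM (vertical axis, from 0) of each of the 9 genes in every mouse, by dietary iron content; the number above a point is that of the library, and the black bar is the mean and SD of 3 mice. The 3 high-iron points lie above the rest for Irs2 and below the rest for Fbp1, while G6pc and Igfbp1 spread widely within a diet.

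Irs2 encodes an adaptor that passes the signal of the insulin receptor to phosphoinositide 3-kinase. Its level was 7.41, 9.25 and 6.55 CPM in low-iron mice 1, 5 and 9, 7.14, 8.52 and 8.83 CPM in sufficient-iron mice 2, 6 and 10, and 12.5, 11.3 and 11.8 CPM in high-iron mice 4, 8 and 12. The lowest high-iron mouse stood above the highest mouse of both other diets. Irs2 averaged 11.9 ± 0.631 CPM in high-iron livers and 8.16 ± 0.898 CPM in sufficient-iron livers (SD, n = 3 each). That is a log2 fold change of 0.54 ± 0.15 (SE), with a 95% interval of 0.20 to 0.87 (unadjusted p = 0.00491, adjusted p = 0.266). Against the low-iron diet the log2 fold change was 0.61 ± 0.15 (interval 0.27 to 0.95, unadjusted p = 0.0024, adjusted p = 0.133). Irs2 ranked 235 of 13020 genes by p in that comparison. Low-iron livers averaged 7.74 ± 1.38 CPM against 8.16 ± 0.898 CPM in sufficient-iron livers, a log2 fold change of -0.08 with an interval of -0.42 to 0.26.

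Fbp1 encodes the enzyme that removes a phosphate from fructose-1,6-bisphosphate, a step glycolysis does not share. It stood at 428, 792 and 696 CPM with low, 608, 611 and 491 CPM with sufficient and 358, 367 and 410 CPM with high iron. The 3 high-iron mice lay within a narrow band below every other mouse, and low-iron mouse 1, the library richest in Rn45s, came closest to them. Fbp1 averaged 379 ± 27.9 CPM in high-iron livers and 570 ± 68.2 CPM in sufficient-iron livers, a log2 fold change of -0.59 ± 0.20 (interval -1.04 to -0.14, unadjusted p = 0.0147, adjusted p = 0.419). Against the low-iron diet the means were 379 ± 27.9 CPM in high-iron livers and 639 ± 189 CPM in low-iron livers, a log2 fold change of -0.75 ± 0.20 (interval -1.20 to -0.31, unadjusted p = 0.00367, adjusted p = 0.166). Without low-iron mouse 1 this difference was -0.97 and passed (adjusted p = 0.0196), among 106 genes that passed there. In that fit high over sufficient iron stayed at -0.59, with an SE of 0.12 and an adjusted p of 0.0794. DESeq2 on all 9 libraries also called Fbp1 between the high-iron and low-iron diets (adjusted p = 0.0187), as it did Irs2 (0.0271). It called 365 genes in that comparison, against 66 in edgeR.

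Of the 7 hepatocyte markers 0 passed the test in any comparison. In high over low iron 7 of 7 were negative, beside 51.2% of all genes (median -0.36 beside -0.01). Their summed level, most of it Alb (high over low adjusted p = 0.567), ran from 68600 to 78500 CPM with low, 55600 to 76200 CPM with sufficient and 49900 to 61900 CPM with high iron. Among them Trf, the transferrin gene, averaged 6620 CPM in high-iron livers and 9630 CPM in low-iron livers (log2 fold change -0.54, adjusted p = 0.195). Hnf4a, which encodes a hepatocyte transcription factor, ran from 397 to 418 CPM in high-iron livers and from 426 to 470 CPM in low-iron livers (log2 fold change -0.11, adjusted p = 0.819). Such separation was found for 15.7% of all genes, and sufficient-iron mice 2, 6 and 10 had 462, 410 and 398 CPM of Hnf4a. Of 7 red cell markers listed, 5 were in the tables, and the haemoglobin genes Hbb-bs and Hbb-bt were not. The 4 haemoglobin genes in the tables had 0 reads, and the cause was not tested. Alas2, which encodes the erythroid enzyme of haem synthesis, stood at 86.9 to 126 CPM with low, 62.3 to 81.5 CPM with sufficient and 28.1 to 38.4 CPM with high iron. It passed the test in high over low iron (log2 fold change -1.58, adjusted p = 0.0113) and in high over sufficient iron (-1.06, adjusted p = 0.0479). Markers of other liver cells ran the other way in high over low iron, with 0 past the test. There 5 of 5 cholangiocyte markers (median 0.69), 6 of 6 Kupffer cell markers (median 0.21) and 5 of 5 stellate cell markers (median 0.17) were positive, and 3 of 5 endothelial markers (median 0.28). Of all genes 48.8% were positive there. The 6 Kupffer cell markers were negative in high over sufficient (median -0.45) and in low over sufficient iron (median -0.69). Low-iron mouse 1 was the lowest of all mice for each of these 6. It had 31 CPM of Clec4f, against 65 and 64.8 CPM in low-iron mice 5 and 9. High-iron mice 4, 8 and 12 had 54.4, 53.7 and 65.9 CPM of Clec4f. Marco was at 0.468, 2.01 and 2.5 CPM with low and 2.64, 3.71 and 8.71 CPM with high iron, without overlap (15.7% of all genes). The part of all these cell markers in the Irs2 and Fbp1 differences was not tested. Kidney, which also makes glucose, had 4 of 6 markers at 0 reads and a summed level of at most 2.23 CPM.

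The comparisons of each diet with the sufficient diet share the sufficient-iron libraries, and the high-iron against low-iron comparison uses the remaining ones again. Between the high-iron and sufficient diets, 0 of 9 genes passed the edgeR test, where 0.215% of all tested genes did, and 0 passed in DESeq2 or limma-voom. At an unadjusted p under 0.05 there were 2 of 9 (Irs2 and Fbp1), beside 9.28% of all genes. The same 2 did not overlap between the diets, beside 17.8% of all genes. Between the low-iron and sufficient diets 0 of 9 passed, in edgeR, DESeq2 and limma-voom alike, as did 0% of all genes in edgeR. There 0 of 9 reached an unadjusted p under 0.05 (11.2% of all genes), and 0 of 9 were free of overlap (16.6%). Between the high-iron and low-iron diets 0 of 9 passed (0.507% of all genes) and 2 of 9, again Irs2 and Fbp1, had an unadjusted p under 0.05 (9.65%) and no overlap (15.7%). DESeq2, which called 365 genes in that comparison against 66 in edgeR, called both of them. Limma-voom, which called 64 genes, called 0 of the 9.

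The 3-diet test passed 0 of 9 in edgeR (0.215% of all genes), with Irs2 at an adjusted p of 0.19 and Fbp1 at 0.289, and 2 of 9 had an unadjusted p under 0.05 (10.7%). The trend per 10-fold rise in dietary iron passed 0 of 9 (0.307% of all genes), with 2 of 9 at an unadjusted p under 0.05 (8.73%). Its log2 slope was 0.24 ± 0.06 for Irs2 (adjusted p = 0.148) and -0.29 ± 0.08 for Fbp1 (adjusted p = 0.197). DESeq2 called these 2 genes in both tests, with adjusted p-values of at least 0.0234. It called 413 genes in the 3-diet test and 313 in the trend, against 28 and 40 in edgeR. Signs over the 9 genes were 5 positive and 4 negative in high over sufficient iron (48.1% and 51.9% of all genes), 7 and 2 in low over sufficient (49.4% and 50.6%) and 2 and 7 in high over low (48.8% and 51.2%). The median log2 fold change over the 9 genes was 0.02 for high over sufficient iron, 0.11 for low over sufficient and -0.15 for high over low, beside -0.01, 0 and -0.01 over all tested genes.

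**Figure D2:**
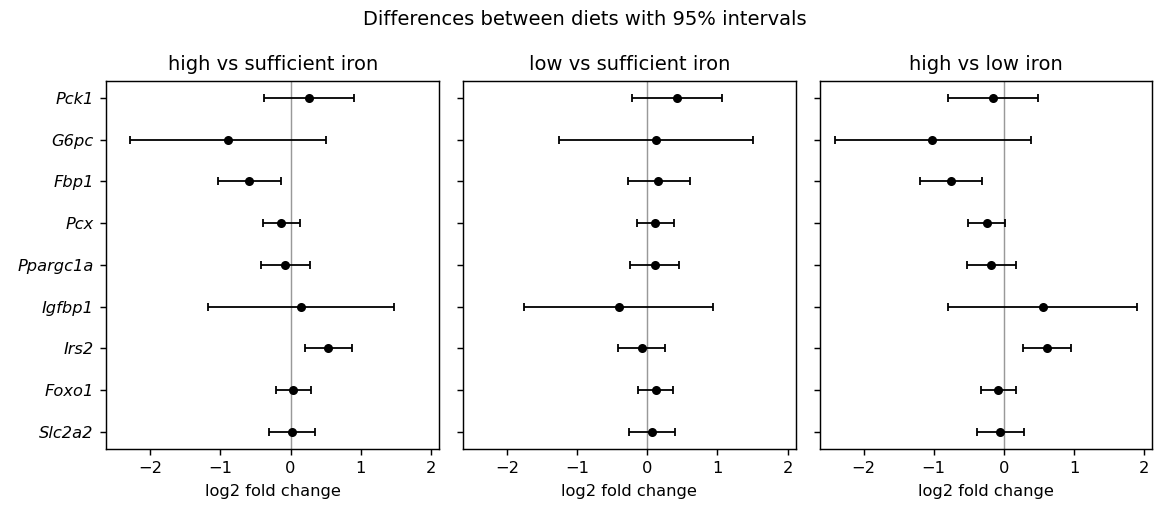
Log2 fold change (horizontal axis) of each gene in the 3 comparisons of diets, with its 95% interval from the edgeR fit. The intervals of Irs2 and Fbp1 leave 0 out in both high-iron comparisons, and those of G6pc and Igfbp1 are the widest of the 9.

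G6pc encodes the last enzyme of glucose release, which frees glucose from glucose-6-phosphate. Its level was 625, 343 and 234 CPM with low, 759, 239 and 104 CPM with sufficient and 258, 196 and 140 CPM with high iron. The sufficient-iron group held both the highest and the lowest mouse of the study, 7.29-fold apart, and the diets overlapped. G6pc averaged 198 ± 58.9 CPM in high-iron livers and 367 ± 346 CPM in sufficient-iron livers, a log2 fold change of -0.89 ± 0.62 (interval -2.29 to 0.50, adjusted p = 0.662). Without sufficient-iron mouse 2 the value was 0.21. Against the low-iron diet it was -1.02 ± 0.62 (interval -2.41 to 0.38, adjusted p = 0.672), and the low-iron diet against the sufficient diet gave 0.12 (interval -1.26 to 1.51). A 2-fold difference in either direction, a log2 value of 1, therefore lay within the interval of the low-iron against sufficient comparison.

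Igfbp1 encodes a secreted IGF-binding protein whose hepatic transcript is known to fall quickly with insulin. Its level was 72.6, 28.7 and 15.6 CPM with low, 32.3, 91.6 and 28.4 CPM with sufficient and 61.3, 76.1 and 31.7 CPM with high iron. Each diet had mice both above 60 and below 35 CPM, and the 3 diets covered much the same range. The log2 fold change was 0.15 (interval -1.18 to 1.48) for high over sufficient iron, -0.40 (-1.75 to 0.94) for low over sufficient and 0.55 (-0.79 to 1.90) for high over low. With 1 library left out the last ran from 0.17 to 1.36, the highest without low-iron mouse 1 and the lowest without low-iron mouse 9. The first of the 3 turned to -0.09, -0.14 or -0.15 when sufficient-iron mouse 2, high-iron mouse 8 or sufficient-iron mouse 10 was left out. Sufficient-iron mouse 6, the mouse with the most Igfbp1, also held the most Atf3, a stress-induced factor gene, at 8.95 CPM, against 1.10 to 2.57 CPM in the other mice. The part of this library in the Igfbp1 spread was not tested.

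Pck1 encodes the enzyme that turns oxaloacetate into phosphoenolpyruvate. It read 622, 870 and 792 CPM with low, 525, 722 and 464 CPM with sufficient and 388, 952 and 711 CPM with high iron. High-iron mice 4 and 8 were the lowest and the highest of all 9, and the diets overlapped. The log2 fold change was 0.26 (interval -0.38 to 0.90, adjusted p = 0.768) for high over sufficient iron, 0.42 (-0.22 to 1.06, adjusted p = 0.55) for low over sufficient and -0.15 (-0.79 to 0.48) for high over low. Without high-iron mouse 8 the first was -0.06. Adipocytes also express Pck1. The adipocyte markers Plin1 and Lep had 0 reads in all libraries, and Adipoq was at most 0.0705 CPM. Cfd, another adipocyte marker, averaged 4.23 CPM in high-iron, 2.8 CPM in low-iron and 0.813 CPM in sufficient-iron livers. Its high over sufficient log2 fold change was 2.33 (adjusted p = 0.41), and these diets overlapped. Of 3 adipocyte markers tested, 2 were positive and 1 negative there, and 0 passed in any comparison. The part of these markers in the Pck1 values was not tested. The summed level of the 7 adipocyte markers, most of it Cidec and Fabp4, was 18.7 to 27.9 CPM with low, 11.2 to 67.4 CPM with sufficient and 16.3 to 38 CPM with high iron.

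Pcx, the mitochondrial enzyme that makes oxaloacetate from pyruvate, varied far less. It stood at 360, 411 and 429 CPM with low, 345, 408 and 356 CPM with sufficient and 314, 339 and 360 CPM with high iron. Its mean was lower at each step up in iron, but the diets overlapped in each comparison. The high over low log2 fold change was -0.24 ± 0.12 (interval -0.51 to 0.02, adjusted p = 0.564), the high over sufficient one -0.13 (-0.39 to 0.14) and the low over sufficient one 0.11 (-0.15 to 0.38).

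The regulators Foxo1 and Ppargc1a and the transporter gene Slc2a2 also varied little between mice. Foxo1 was 30.7, 36.6 and 34.9 CPM with low, 31.9, 28.2 and 34 CPM with sufficient and 32.5, 29.9 and 34.3 CPM with high iron. The log2 differences of Foxo1 had 95% intervals between -0.33 and 0.37 in the 3 comparisons. Slc2a2 was 214, 249 and 293 CPM with low, 258, 215 and 249 CPM with sufficient and 212, 243 and 278 CPM with high iron, and its intervals ran between -0.38 and 0.40. Ppargc1a was 10.8, 12 and 8.42 CPM with low, 9.33, 9.18 and 10.4 CPM with sufficient and 10.3, 8.21 and 8.92 CPM with high iron, with intervals between -0.53 and 0.45. For these 3 genes the diets overlapped in each comparison, and changes of 1.5-fold or more lay outside the intervals.

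The spread between mice ordered the genes in its own way. Over the 9 mice the coefficient of variation was 69.3% for G6pc, 55.2% for Igfbp1, 29.2% for Fbp1, 28.1% for Pck1, 23.3% for Irs2, 12.7% for Ppargc1a, 11.7% for Slc2a2, 10.3% for Pcx and 8.2% for Foxo1. Levels per kilobase of merged exon (CPM per kb, GENCODE M21) put Fbp1 first, at a median of 289 (range 210 to 466), then Pck1 at 207 (113 to 278) and G6pc at 99.1 (43.1 to 314), with overlapping ranges. Pcx at 75.7 (66.1 to 90.2) overlapped G6pc. Slc2a2 at 43.3 (36.8 to 51) lay below each Pcx value but overlapped Igfbp1 at 21.2 (10.2 to 60.1). Foxo1 followed at 3.75 (3.26 to 4.23), below each Igfbp1 value. Ppargc1a at 1.42 (1.25 to 1.81) and Irs2 at 1.40 (1.04 to 1.98) overlapped each other, below each Foxo1 value, and came last. The gene models behind the counts are not stated in the labels, so this order is approximate.

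Among the 36 pairs of genes, 0 had a correlation across the 9 libraries past an adjusted p of 0.05, and 3 had an unadjusted exact permutation p under 0.05. Igfbp1 ran against Slc2a2, with Pearson r = -0.86 (exact permutation p = 0.0029, adjusted over 36 pairs 0.0788) and Spearman rho = -0.72 (exact p = 0.0369, adjusted 0.442). Without the 2 mice farthest in Igfbp1, sufficient-iron mouse 6 and high-iron mouse 8, r was -0.92, and after subtraction of the diet means it was -0.89 (exact p = 0.0185 over orders within diets, adjusted 0.444). Igfbp1 also ran against Foxo1, with r = -0.85 (exact p = 0.00438, adjusted 0.0788) and rho = -0.90 (exact p = 0.00203, adjusted 0.073). That r was -0.72 without the same 2 mice and -0.87 after subtraction of the diet means (exact p = 0.0278, adjusted 0.444). In each diet the mouse with the most Igfbp1 had the least Foxo1. Fbp1 and Pcx varied together across mice, with r = 0.83 (exact p = 0.00745, adjusted 0.0895), rho = 0.82 (exact p = 0.0108, adjusted 0.194), r = 0.66 without low-iron mice 5 and 9 and r = 0.69 after subtraction of the diet means (exact p = 0.106, adjusted 0.639). Fbp1 and Irs2 had r = -0.66 (exact p = 0.0612, adjusted 0.509) and rho = -0.65 (exact p = 0.0666, adjusted 0.599). That r was -0.76 without low-iron mice 5 and 9 but 0.14 after subtraction of the diet means. The Rn45s share correlated with each of the 9 genes at an r between -0.23 and 0.28 (exact permutation p of at least 0.458, adjusted 0.966 for each).

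**Figure D3:**
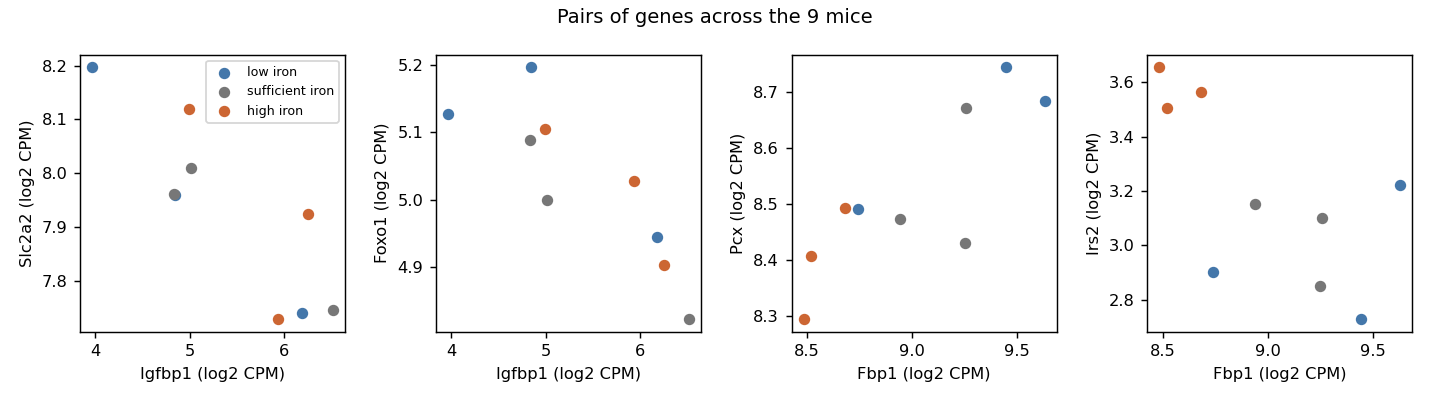
Log2 CPM of pairs of genes in the 9 mice, one point per mouse, coloured by diet. Mice with more Igfbp1 tend to have less Slc2a2 and Foxo1, and mice with more Fbp1 tend to have more Pcx. The 3 high-iron mice sit apart in the panel of Fbp1 and Irs2.

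The gene with the most similar pattern over the 9 libraries, by Pearson r among 11013 other genes, was Shank3 for Irs2 (0.94), Aox3 for Fbp1 (0.98), Pde4b for G6pc (0.95) and Fancc for Pck1 (0.94). The second was F2r for Irs2 (0.93), Sec63 for Fbp1 (0.98), Ccdc127 for G6pc (0.93) and Sds for Pck1 (0.92). Pcx was most similar to Vcp (0.98) and Pdxdc1 (0.97), Igfbp1 to Tgfbrap1 (0.90) and Myc (0.89), and Slc2a2 to Eef2k (0.93) and Mcl1 (0.91). Foxo1 was most similar to Oxsm (0.91) and Pm20d1 (0.90), and Ppargc1a to Zbtb7c (0.89) and Cwc22 (0.88). Pde4b encodes a phosphodiesterase that breaks down cAMP, and read 32.5, 21.2 and 22 CPM with low, 34.6, 17.1 and 13.4 CPM with sufficient and 18.9, 16.2 and 16.9 CPM with high iron. The 2 mice with the most Pde4b were also the 2 with the most G6pc. Sds encodes serine dehydratase, which feeds serine into pyruvate. It was highest in high-iron mouse 8 (108 CPM) and low-iron mouse 5 (107 CPM), the same 2 mice that led for Pck1. These genes are the closest of many compared, so the r values are a description.

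Promoter sequences are shown for 4 of the genes, to set the insulin-response letters in front of Irs2 beside those of G6pc and Igfbp1, and the cAMP-response letters of Pck1 beside those of G6pc. They run from 250 bases before to 50 bases after the annotated start, 5′ to 3′ in the direction of the gene, from RefSeq on GRCm38.p6. Capitals mark the letters found by a search of both strands for TGTTTTG and TATTTTG (insulin response cores, which FOXO proteins bind), TGACG (a core of the cAMP response element) and TTACGTNA (a form found in liver cAMP response elements). These letters were chosen after the sequences had been seen.
Irs2 (chr8:11008880-11009179, strand -): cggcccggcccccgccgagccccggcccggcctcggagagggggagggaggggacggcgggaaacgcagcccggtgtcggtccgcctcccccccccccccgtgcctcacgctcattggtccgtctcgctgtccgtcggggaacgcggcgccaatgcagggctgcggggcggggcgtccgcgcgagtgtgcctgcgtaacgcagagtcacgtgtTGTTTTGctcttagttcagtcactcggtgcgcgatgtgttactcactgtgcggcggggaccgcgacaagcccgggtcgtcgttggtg
Igfbp1 (chr11:7197537-7197836, strand +): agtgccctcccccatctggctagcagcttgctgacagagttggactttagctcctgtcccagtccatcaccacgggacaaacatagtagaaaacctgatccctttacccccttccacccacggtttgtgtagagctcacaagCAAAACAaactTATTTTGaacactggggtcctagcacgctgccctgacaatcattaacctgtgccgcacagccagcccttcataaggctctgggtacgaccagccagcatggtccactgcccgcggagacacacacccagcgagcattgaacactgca
G6pc (chr11:101367466-101367765, strand +): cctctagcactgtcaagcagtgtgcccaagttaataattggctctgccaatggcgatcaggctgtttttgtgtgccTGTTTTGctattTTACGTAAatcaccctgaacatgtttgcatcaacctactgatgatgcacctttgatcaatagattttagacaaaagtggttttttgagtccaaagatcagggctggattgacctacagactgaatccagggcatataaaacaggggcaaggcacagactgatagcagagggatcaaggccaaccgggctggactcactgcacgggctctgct
Pck1 (chr2:173152823-173153122, strand +): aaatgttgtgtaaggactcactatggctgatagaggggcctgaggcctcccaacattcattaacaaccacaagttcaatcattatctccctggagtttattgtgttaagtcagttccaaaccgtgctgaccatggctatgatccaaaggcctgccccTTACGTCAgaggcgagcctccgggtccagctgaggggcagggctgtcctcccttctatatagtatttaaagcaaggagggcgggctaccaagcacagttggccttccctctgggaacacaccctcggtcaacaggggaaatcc

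Irs2 carried TGTTTTG with its first base 37 bases before the start (position -37). Igfbp1 carried it on the opposite strand at -108, where it reads CAAAACA, and TATTTTG at -97. G6pc carried TGTTTTG at -174 and TTACGTAA at -162, and Pck1 carried TTACGTCA at -93, which overlaps the TGACG match of the opposite strand. The letters TGTTTTG were present in 6.28% and TATTTTG in 4.36% of 32851 promoters of this length, 10.2% for either, while TGACG was in 20.8% and TTACGTNA in 0.898%. Of the 9 genes, all with a promoter in the table, Ppargc1a also had a TGACG match (at -49), and Fbp1, Pcx, Foxo1 and Slc2a2 had no match to any of the 4 in these windows. Among the 3 genes with insulin-response letters, Irs2 was higher in all high-iron mice than in the rest, while G6pc and Igfbp1 overlapped between the diets.

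Other genes of the same pathways were counted in 9 lists. Between the high-iron and low-iron diets 2 of their genes passed. These were Pik3r1, of 22 tested genes in the insulin receptor arm, and Pklr, of 20 in the fed-state list. Both were lower in high-iron livers (0.346% of all genes passed on that side). The other lists, of 11 to 18 tested genes each, had 0 past the test. Pik3r1 encodes the regulatory subunit of the phosphoinositide 3-kinase that binds IRS2. It fell to 51.9, 44.8 and 53.4 CPM in high-iron mice, against 70.1, 79.1 and 80.7 CPM in low-iron mice (log2 fold change -0.62 ± 0.11, SE, adjusted p = 0.0359). The groups did not overlap, as was the case for 15.7% of all genes. The sufficient-iron mice, at 69.7 to 72.9 CPM, lay on the side of the low-iron ones (high over sufficient -0.52, adjusted p = 0.104). Pklr is the liver pyruvate kinase gene, whose enzyme runs against gluconeogenesis. It read 202, 199 and 227 CPM in high-iron mice, against 518, 404 and 422 CPM in low-iron mice (-1.10 ± 0.20, adjusted p = 0.0432). Sufficient-iron mice 2, 6 and 10 had 488, 280 and 322 CPM of Pklr (high over sufficient -0.79, adjusted p = 0.186). Without low-iron mouse 1 and high-iron mouse 12, the libraries richest in Rn45s, the high over low values were -0.73 for Pik3r1 (adjusted p = 0.0519) and -1.05 for Pklr (adjusted p = 0.124), neither past the threshold. Leaving out 1 library at a time gave adjusted p-values of 0.0233 to 0.161 for Pik3r1, above the threshold without any of high-iron mice 4, 8 and 12, low-iron mice 5 and 9 or sufficient-iron mice 2 and 10. For Pklr they were 0.0165 to 0.188, above it without any of the high-iron or low-iron mice or sufficient-iron mouse 10.

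**Figure D4:**
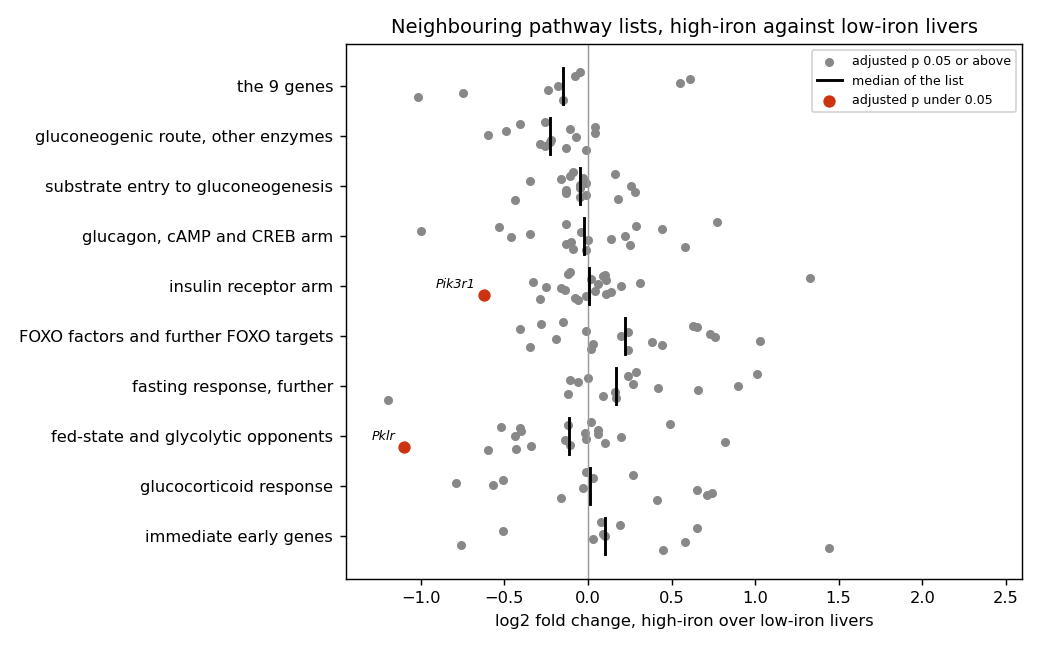
Log2 fold change of high-iron over low-iron livers (horizontal axis) for the tested genes of each list, one point per gene, with the list median as a bar. Pik3r1 and Pklr, in red, are the genes past an adjusted p of 0.05, and the medians of the other gluconeogenic enzymes and of the 9 genes lie left of 0.

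The remaining enzymes of the gluconeogenic route, most of them shared with glycolysis, leaned to one side between the extreme diets. Of 14 tested, 12 were negative in high over low iron (51.2% of all genes), with 0 past the test and 3 at an unadjusted p under 0.05, all lower (5.44% of all genes), and a median of -0.22 beside -0.01 for all genes. In low over sufficient iron 13 of 14 were positive (49.4% of all genes), with 0 past the test and 4 higher at an unadjusted p under 0.05 (5.79% of all genes), and a median of 0.20 beside 0. In high over sufficient iron 8 of 14 were positive (48.1% of all genes), with a median of 0.06 beside -0.01. The cytosolic malate dehydrogenase gene Mdh1 averaged 428 CPM in high-iron livers and 524 CPM in low-iron livers (-0.29, adjusted p = 0.427). Of 17 genes of substrate entry 0 passed in any comparison. Among them Gpt, the alanine aminotransferase gene, averaged 111 CPM in high-iron livers and 150 CPM in low-iron livers (-0.44, adjusted p = 0.181). Slc25a10, a mitochondrial dicarboxylate carrier gene, averaged 246 CPM in low-iron livers and 182 CPM in sufficient-iron livers (0.43, adjusted p = 0.446).

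In the insulin receptor arm, 19 of 22 genes were negative in high over sufficient iron (51.9% of all genes), with a median of -0.07 beside -0.01, 0 past the test, and at an unadjusted p under 0.05 1 higher (4.16% of all genes) and 1 lower (5.12%). In high over low iron the list had 11 positive and 11 negative (median 0.01), and in low over sufficient iron 9 and 13 (median -0.03). Pik3r1 was the lower of the 2 in high over sufficient iron. The higher was Trib3, which encodes a pseudokinase reported to bind AKT, at 11.1, 23.5 and 17.7 CPM in high-iron mice, against 6.12, 4.79 and 11.4 CPM in sufficient-iron mice (1.23, adjusted p = 0.304). Its groups overlapped through sufficient-iron mouse 10. Among 18 FOXO factors and further FOXO targets 0 passed, and the median was 0.17 for high over sufficient and 0.22 for high over low iron. At an unadjusted p under 0.05 there were 4 higher and 3 lower in high over sufficient iron, and 4 higher (4.22% of all genes) and 0 lower in high over low iron. Igfbp2, a relative of Igfbp1, read 211, 357 and 234 CPM in high-iron mice, against 142, 118 and 145 CPM in sufficient-iron mice (0.98, adjusted p = 0.107). Txnip, which encodes an inhibitor of thioredoxin, read 107, 98.2 and 100 CPM in high-iron mice, against 52.9, 59.8 and 77.3 CPM in sufficient-iron mice (0.68, adjusted p = 0.223). Both genes were free of overlap between these diets, as were 17.8% of all genes, and neither passed the test.

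The glucagon and cAMP arm had 18 tested genes, 0 past the test in any comparison, and medians of 0.02 for high over sufficient, 0.02 for low over sufficient and -0.02 for high over low iron. The adenylate cyclase gene Adcy6 averaged 40.2 CPM in high-iron livers and 26.9 CPM in low-iron livers (0.58, adjusted p = 0.151), and Crem, a cAMP-responsive factor gene, 16.2 CPM in high-iron livers and 22.3 CPM in low-iron livers (-0.46, adjusted p = 0.375). Of 15 further fasting genes 0 passed. The thioesterase gene Acot1 averaged 36.3 CPM in high-iron livers and 14.4 CPM in sufficient-iron livers (1.34, adjusted p = 0.0952), and Angptl4, an inhibitor of lipoprotein lipase, 77.7 CPM in high-iron livers and 51.2 CPM in sufficient-iron livers (0.60, adjusted p = 0.245). On the fed-state list, Pfkfb3, which makes the activator of phosphofructokinase, averaged 14 CPM in high-iron livers and 6.98 CPM in sufficient-iron livers (1.00, adjusted p = 0.153). That list had 17 of 20 genes positive in low over sufficient iron (49.4% of all genes; median 0.23, 0 past the test). Among the positive were Pygl, the glycogen phosphorylase gene (0.29), and Gckr, the gene of the glucokinase regulator (0.36), so the count is not of fed-state genes only. In high over low iron 13 of the 20 were negative, beside 51.2% of all genes (median -0.11 beside -0.01, Pklr past the test).

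Glucocorticoid-responsive genes and immediate early genes, which can move with handling and time of day, had 0 of 12 and 0 of 11 past the test in any comparison. The kinase gene Sgk1 averaged 12.3 CPM in low-iron livers and 22.4 CPM in sufficient-iron livers (-0.87, adjusted p = 0.446), and the cell cycle inhibitor gene Cdkn1a 5.47 CPM in low-iron livers and 10.9 CPM in sufficient-iron livers (-1.03, adjusted p = 0.446). Atf3 had a low over sufficient log2 fold change of -1.38 and Btg2, an antiproliferative gene, one of -0.77 (adjusted p = 0.446 and 0.451). Sufficient-iron mouse 6 was the highest of all 9 mice for Atf3, Cdkn1a (19.7 CPM) and Btg2 (20.3 CPM). The other sufficient-iron mice, 2 and 10, had 1.6 and 1.99 CPM of Atf3, within the low-iron range of 1.10 to 2.57 CPM. They had 7.87 and 5.16 CPM of Cdkn1a, against 4.19 to 7.26 CPM in low-iron mice. The medians of the immediate early list were -0.12 for high over sufficient, -0.28 for low over sufficient and 0.10 for high over low iron.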

How the data were processed

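Liver RNA of 9 mice was sequenced (TruSeq RNA libraries, per the labels' protocols), 3 libraries a diet. Each library has a deposited table of raw counts for 23420 gene symbols; its 5 category rows were left out of library sizes and tests. FastQC and the builds mm10 and mm9 are named, without roles, per the submitters' processing notes. With aligner, counter and strand not given in the sources used here, overlapping and antisense genes cannot be told apart.

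All 9 libraries entered 1 fit in edgeR 4.0.16 (R 4.3.3) with filterByExpr, TMM and a robust quasi-likelihood fit on diet. The comparisons were the 3 pairs of diets, a 3-diet test and a trend on log10 iron. P-values were adjusted over 13020 genes. SE is the absolute log2 fold change or slope over the root of F. Log2 CPM used a prior count of 2. The fit was tested on simulated data. Correlations used all 362880 orders of the libraries, two-sided, and after subtraction of diet means the 216 orders within diets. Alternatives were other scalings, filters and tools (DESeq2 1.42.0, limma 3.58.1) and libraries left out.

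All 9 genes were named whatever their result. From each list the genes past the threshold and the 2 with the lowest 3-diet p were named, and for each of the 9 genes the 2 most similar ones whose mean reached 1 CPM, predicted models and Riken clones left out. A gene the rule also picks is not reported here. Other genes named were chosen after their values were seen. The genes and lists were chosen with earlier results of these data known. Each diet had 3 mice. The edgeR p-values rest on a spread within diets that is pooled over all 9 libraries and moderated across genes. A comparison of 2 diets therefore also draws on the mice of the remaining diet. The permutation p-values come from the orders of the libraries alone.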

Additional observations from a re-analysis of the deposited data

How the results depend on the processing

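In low over sufficient iron 0 of the 9 genes passed under each of the 22 alternatives. In high over sufficient iron 0 passed except for 2 at an unadjusted p under 0.05. In high over low iron the count was 2 under DESeq2, limma-voom with sample quality weights and an unadjusted p under 0.05, and 1 (Fbp1) without low-iron mouse 1 and high-iron mouse 12 or without low-iron mouse 1 and sufficient-iron mouse 6. Leaving out 1 library at a time gave 0 to 1, the 1 being Fbp1 without low-iron mouse 1. In the 3-diet test and in the trend it was likewise 2 under DESeq2, quality weights and an unadjusted p under 0.05, 1 without low-iron mouse 1 and sufficient-iron mouse 6, and 0 to 1 with 1 library left out. The cause was not tested. Over all genes, 66 passed in high over low iron in the main fit, 365 under DESeq2 and 378 under quality weights. For the 3-diet test these counts were 28, 413 and 230, and for the trend 40, 313 and 294. Pik3r1 and Pklr, added after seeing the data, kept their sign throughout; Pik3r1 also missed the threshold with upper-quartile scaling (adjusted p = 0.0532) and with only the 6 libraries of the 2 diets (0.081). Correlated pairs numbered 0 to 1 with 1 library left out (Fbp1 with Pcx without sufficient-iron mouse 2) and 0 otherwise.

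Of 540 alternative values of the 9 genes, 503 kept their sign and side of the threshold, 7 passed it and 30 changed sign. Irs2 and Fbp1 kept their sign in both high-iron comparisons: Irs2 ran from 0.45 to 0.59 over sufficient and 0.50 to 0.77 over low iron, Fbp1 from -0.70 to -0.54 and -1.04 to -0.57. With 1 library left out, values that changed sign ran, for high over sufficient iron, from -0.06 to 0.55 for Pck1, -1.34 to 0.21 for G6pc, -0.15 to 0.89 for Igfbp1, -0.03 to 0.09 for Foxo1 and -0.08 to 0.12 for Slc2a2. For low over sufficient iron they ran from -0.35 to 1.22 for G6pc, -0.02 to 0.37 for Fbp1, -0.01 to 0.24 for Ppargc1a, -1.22 to 0.34 for Igfbp1, -0.23 to 0.03 for Irs2 and -0.06 to 0.16 for Slc2a2. For high over low iron they ran from -0.46 to 0.13 for Pck1 and -0.14 to 0.08 for Slc2a2. Without low-iron mouse 1 and high-iron mouse 12, high over sufficient was -0.01 for Foxo1 and -0.08 for Slc2a2, and low over sufficient -0.34 for G6pc. Without low-iron mouse 1 and sufficient-iron mouse 6 these were -0.03, -0.05 and -0.58. With quality weights Slc2a2 was -0.08 in high over sufficient, and Ppargc1a -0.04 in low over sufficient and 0.00 in high over low iron.

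No paired analysis was possible because the diets share no replicate numbers in the labels. The intervals of G6pc in low over sufficient and of Igfbp1 in high over sufficient iron do not exclude a 2-fold difference in either direction.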
